A study of Homo sapiens with 6 samples.

Results

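The genes described here are 45 genes of the centromere, the kinetochore, the chromosomal passenger complex and the spindle checkpoint, out of 60651 gene rows in the count files. They were taken from a list of names, and each was found on 1 row. By role they were sorted into an inner centromere set of 19, an outer kinetochore set of 19 and a passenger set of 3, with 2 checkpoint genes and 2 other genes of the CENP name series kept apart. The cells were MDA-MB-231, an established human triple-negative breast cancer line, labelled as genotype WT. Controls were given DMSO, the solvent. The other groups were given AF-EAE, which the series title spells out as an extract made with ethyl acetate from Antenoron filiforme, a plant, at 75 or 150 µg/ml. RNA was sequenced after 24 h from 2 libraries per group. All 6 libraries come from this 1 line, the sources used here do not describe what the extract contains, and both doses are compared with the same 2 DMSO libraries. The series title names proliferation as the question.

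The centromere is the stretch of a chromosome marked by nucleosomes that carry CENP-A in place of histone H3. On this chromatin sits the constitutive centromere-associated network, the inner kinetochore, which in turn holds the outer kinetochore, where microtubules attach during mitosis. The chromosomal passenger complex corrects wrong attachments through the kinase Aurora B, and the spindle checkpoint delays anaphase until attachment is complete. Many of these genes are transcribed mostly in late cell cycle phases, so their RNA in a bulk sample follows both the level per cell and the share of cells in those phases.

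Counts in genes ran from 15621103 to 17113722 per library, so that 3 counts corresponded to 0.174 to 0.196 CPM (counts relative to a library total scaled by TMM, edgeR's normalization). Of 5 markers of the line (VIM, CD44, EGFR, KRT8 and KRT18), 5 were present in every library and 5 were lower at both doses, with a summed level of 2920 CPM in DMSO, 2280 CPM at 75 µg/ml and 1860 CPM at 150 µg/ml. Of 7 hormone receptor and luminal markers, PGR, FOXA1 and CDH1 were at or near 0. ERBB2 (85.2 CPM in DMSO), GATA3 (13.9 CPM) and EPCAM (4.36 CPM) were present. ESR1 averaged 0.129 CPM in DMSO, 0.849 CPM at 75 µg/ml and 0.654 CPM at 150 µg/ml, and was called higher at both doses. The leukocyte markers PTPRC and CD3E were at 0. Among endothelial markers KDR averaged 15.8 CPM in DMSO and was called lower at 150 µg/ml, with 9.08 CPM there. PECAM1, VWF and CDH5 averaged 0.55, 0.321 and 0.32 CPM in DMSO. VWF was called higher at 75 µg/ml (edgeR adjusted p = 0.034), on 21 and 12 counts against 5 in each DMSO library. The part of these markers in the results below was not tested. Reads outside genes made up 6.32% and 6.72% of the DMSO libraries, rising to 7.98% and 7.73% at the higher dose (6.44% and 7.23% at the lower), and the part of this shift in the results below was not tested. The labels call the libraries of a group biological replicates without naming separate cultures, so the p-values measure only the spread between these libraries, which may be technical.

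Most kinetochore and centromere genes had less RNA in the treated cells, and the level was lower at the higher dose. Of the 44 members that passed the filter on low counts, 28 were lower and 0 higher at 75 µg/ml than in DMSO, at an adjusted p under 0.05 (edgeR's quasi-likelihood test, Benjamini-Hochberg over all genes). Over all 15589 genes tested, 19.4% were lower and 19.2% higher in that comparison. At an unadjusted p under 0.05 a single member, MAD1L1, was higher at 75 µg/ml, and DESeq2 and limma-voom also called 0. At 150 µg/ml, 32 members were lower and 1 was higher, against 25.7% and 25.8% of all genes. Between the doses, 20 members were lower at 150 than at 75 µg/ml and 1 was higher, against 12.5% and 9.51% of all genes. The median log2 fold change of the members was -0.29 at 75 µg/ml and -0.49 at 150 µg/ml, where the median of all genes was 0.01 and 0.03. With library totals in place of TMM the medians of all genes moved to 0.14 and 0.22, 11.6% and 16.3% of all genes were lower, and 18 members at 75 µg/ml and 27 at 150 µg/ml were called lower.

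The 2 libraries of a treated group both lay below both DMSO libraries for 34 members at 75 µg/ml, where 33.3% of all genes tested did so, and for 35 members at 150 µg/ml, against 35.6%. At 75 µg/ml the largest fall was 0.78 on the log2 scale (CENPV), so that 0 members had a fall of at least 2-fold, against 1.26% of all genes. At 150 µg/ml such a fall was seen in 7 members, against 3.99%. These 7 were CENPA, HJURP, CENPM, NDC80, CENPE, BIRC5 and CDCA8, and they come from every layer of the structure. The summed level of all members was 4290 and 4370 CPM in the DMSO libraries, 3450 and 3450 CPM at 75 µg/ml and 2700 and 2750 CPM at 150 µg/ml. This is 79.8% and 63% of the DMSO mean at the 2 doses. In bulk RNA, fewer cells in the phases that express these genes and less RNA per cell cannot be told apart.

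**Figure D1:**
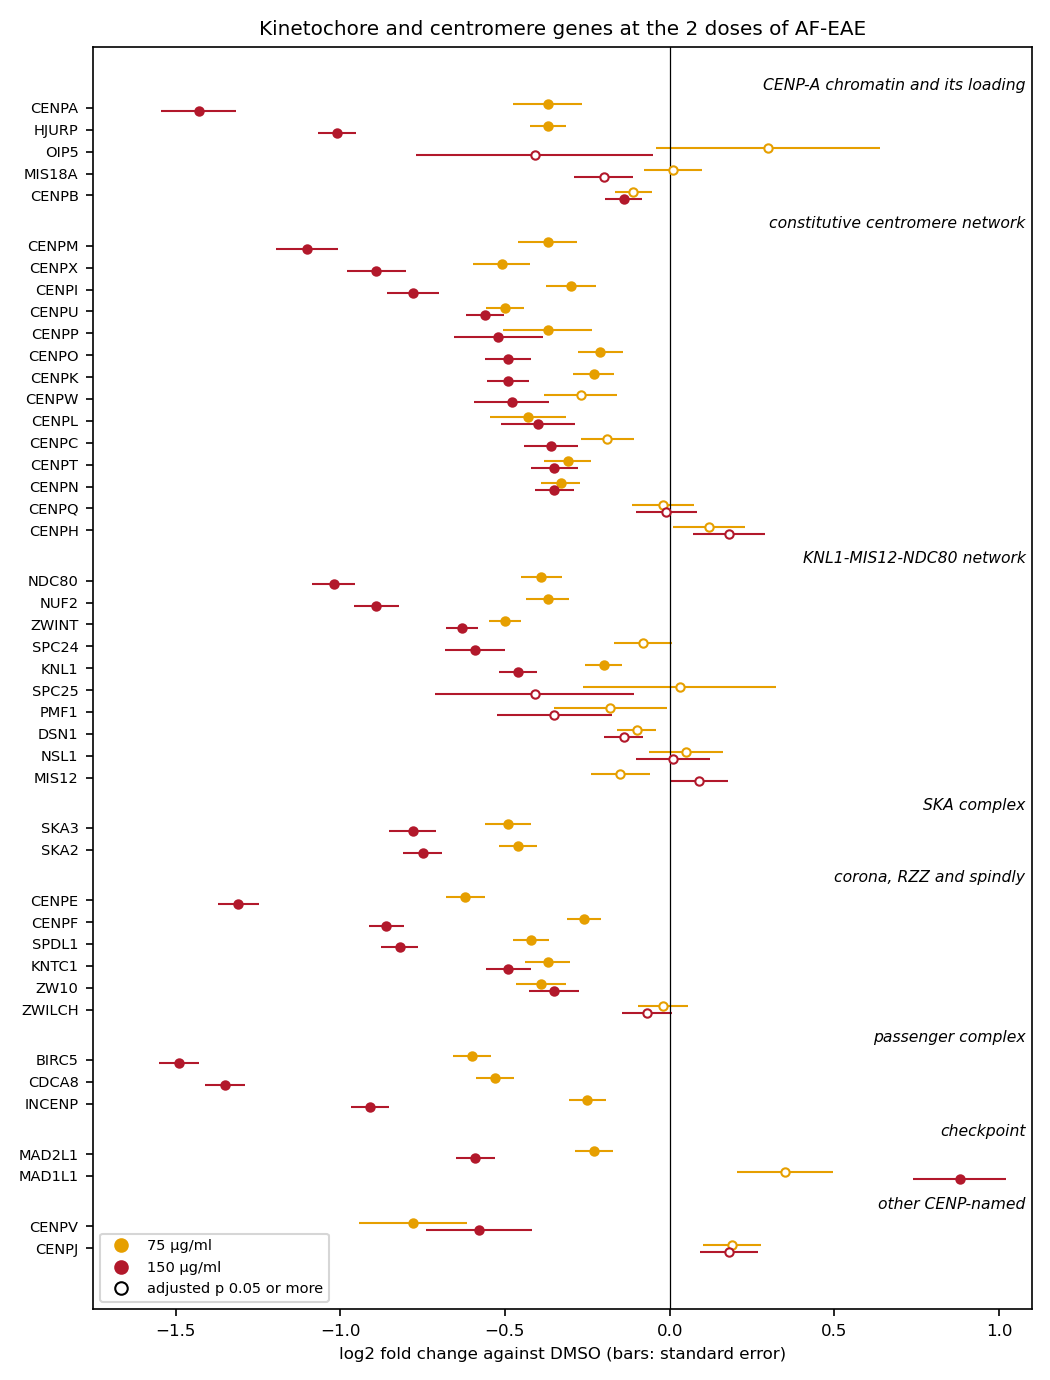
Log2 fold change against DMSO (horizontal axis) of the 44 members tested, by role, at 75 µg/ml (orange) and 150 µg/ml (red), each from 2 libraries per group. Bars are the standard error, and open circles mark an adjusted p of 0.05 or more. Most points lie left of 0 and the red points farther left, while MAD1L1 stands at 0.88 at 150 µg/ml.

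The calls fell into a few patterns. The share of all genes tested with each pattern was not counted, so the pattern counts have no background beside them. In single comparisons 38.6%, 51.5% and 22% of all genes were called at 75 µg/ml, at 150 µg/ml and between the doses. In 19 members the level fell at both doses and again from 75 to 150 µg/ml, and these included all 3 passenger genes, CENPA and HJURP. For CENPK, CENPO, CENPX, KNL1 and SKA3 the call between the doses was lost when some single treated libraries were left out. Their log2 fold changes between the doses were -0.32 to -0.18 in those fits. With library totals, CENPA, CENPI, CENPK, CENPO, KNL1, CENPF, INCENP and MAD2L1 lost the call at 75 µg/ml. The edgeR adjusted p there ran from 0.0569 (CENPF) to 0.353 (CENPO). CENPA, CENPK, CENPO, KNL1 and MAD2L1 also lost that call when some single libraries were left out. In 9 members, CENPL, CENPN, CENPP, CENPT, CENPU, ZWINT, ZW10, KNTC1 and CENPV, the level fell at both doses with no call between the doses. CENPB, CENPC and CENPW were called lower only at 150 µg/ml, and SPC24 was lower at 150 µg/ml against both other groups. MAD1L1 was the 1 member with a call on the high side. In 11 members, OIP5, MIS18A, CENPH, CENPQ, MIS12, DSN1, NSL1, PMF1, SPC25, ZWILCH and CENPJ, no comparison passed the threshold. SKA1, a subunit of the SKA complex, is listed at 0 in all 6 libraries and was not tested. A count of 0 allows a level of up to 0.174 to 0.196 CPM, depending on the library, for counting error only. This limit is on the counted level and not on the RNA in the cells. SKA2 and SKA3, of the same complex, averaged 193 and 86 CPM in DMSO. The counting options and annotation release were not found, and their part in the 0 of SKA1 was not tested.

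The promoters of the members were searched for letters that mark late cell cycle genes, because most members moved together. RefSeq windows of 300 bases, from 250 before to 50 after a transcription start (GRCh38.p14), were at hand for 37 of the 45 members. MIS18A, CENPH, CENPL, CENPM, KNL1, KNTC1, BIRC5 and CENPJ had no window. The CHR, or cell cycle genes homology region, is the element through which MuvB complexes act, and was searched as TTTGAA or TTCGAA. The CCAAT box, searched as CCAAT, is bound by NF-Y. Both strands were searched and matches were allowed to overlap. A CHR was found in 19 of 37 members, or 51.4%, against 19.5% of all 27305 genes with a window. A CCAAT box was found in 24 members, or 64.9%, against 39.7% of all genes, and 16 members, or 43.2%, had at least 2, against 12.9%. E2F letters (TTTCCCGC, TTTCGCGC, TTTGCCGC or TTTGGCGC, both strands) were in 4 members, or 10.8%, against 3.99% of all genes.

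Sorted by the call at 150 µg/ml, a CHR was found in 16 of the 27 lower members with a window, in 2 of the 8 members without a call (OIP5 and SPC25) and not in MAD1L1. A CCAAT box was in 18 of these 27 and in 6 of the 8. E2F letters were in 2 of the 27 and in 2 of the 8. By layer, a CHR was in 7 of 15 inner, 9 of 17 outer and both passenger members with a window. These are matches of letters and not measured binding sites, and no test was made of the differences between these shares.

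The 150 bases before the start follow for 7 members that the results below turn on, chosen after their values were seen. They are written 5′ to 3′ on the strand of the gene, with CHR and CCAAT letters, on either strand, in capitals. In CDCA8, which lies at chr1:37692366-37692515 on the plus strand, the CHR shares 1 base with the CCAAT letters next to it. The other windows are chr11:62123861-62124010 (plus strand) for INCENP, chr2:26785906-26786055 (plus) for CENPA, chr2:233854536-233854685 (minus) for HJURP, chr10:56361260-56361409 (minus) for ZWINT, chr4:103198344-103198493 (minus) for CENPE and chr7:2232946-2233095 (minus) for MAD1L1.
CDCA8: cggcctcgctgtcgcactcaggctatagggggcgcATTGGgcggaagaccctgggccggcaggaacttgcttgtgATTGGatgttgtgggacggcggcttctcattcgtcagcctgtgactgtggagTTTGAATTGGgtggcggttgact
INCENP: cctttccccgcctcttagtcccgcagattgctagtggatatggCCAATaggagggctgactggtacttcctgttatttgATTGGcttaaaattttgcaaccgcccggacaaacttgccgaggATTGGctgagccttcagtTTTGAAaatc
CENPA: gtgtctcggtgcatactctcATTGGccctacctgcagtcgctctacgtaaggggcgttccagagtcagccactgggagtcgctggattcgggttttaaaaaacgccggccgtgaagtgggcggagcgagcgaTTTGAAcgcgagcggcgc
HJURP: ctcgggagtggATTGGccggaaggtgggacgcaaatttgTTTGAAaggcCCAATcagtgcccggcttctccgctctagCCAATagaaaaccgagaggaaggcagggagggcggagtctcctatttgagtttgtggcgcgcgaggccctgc
ZWINT: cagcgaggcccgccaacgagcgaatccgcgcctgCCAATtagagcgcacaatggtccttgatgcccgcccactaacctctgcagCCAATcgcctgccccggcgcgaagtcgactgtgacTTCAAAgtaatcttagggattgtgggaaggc
CENPE: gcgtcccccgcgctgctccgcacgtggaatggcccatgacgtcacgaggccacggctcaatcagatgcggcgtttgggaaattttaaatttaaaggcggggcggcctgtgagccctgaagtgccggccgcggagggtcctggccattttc
MAD1L1: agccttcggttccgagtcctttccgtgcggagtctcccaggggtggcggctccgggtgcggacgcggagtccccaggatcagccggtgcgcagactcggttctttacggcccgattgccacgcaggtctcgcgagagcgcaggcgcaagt
The first 5 hold at least 1 CHR and 1 CCAAT box each. CENPE, which fell by 1.31 on the log2 scale at 150 µg/ml, and MAD1L1, which rose, have neither set of letters in their whole window. The absence says only that these letters are not there.

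**Figure D2:**
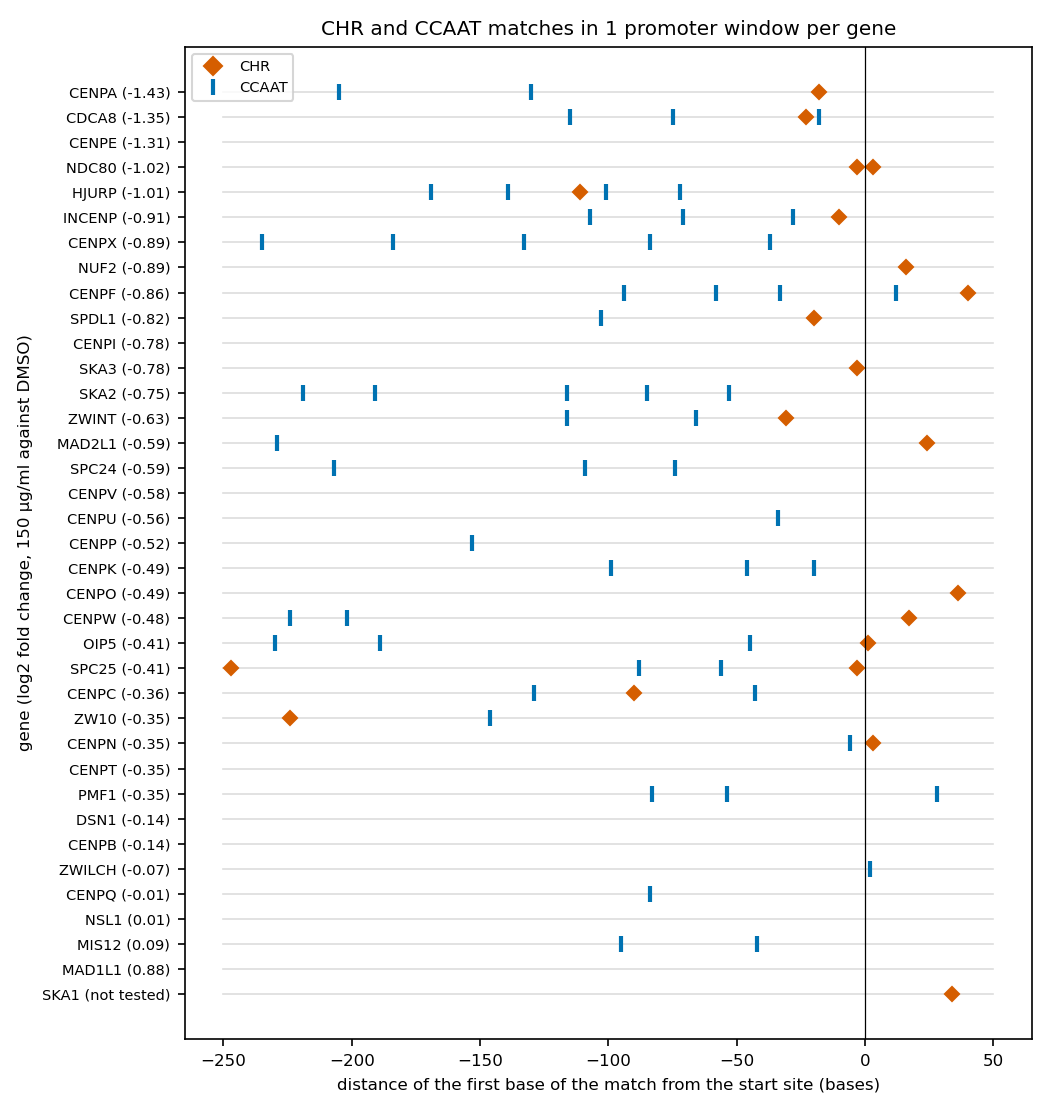
Position of CHR (orange diamonds) and CCAAT (blue bars) letters in 1 promoter window for each of the 37 members with a window, as the distance in bases of the first letter from the RefSeq start. Genes are sorted by the log2 fold change at 150 µg/ml, from CENPA at -1.43 to MAD1L1 at 0.88, with SKA1, which was not tested, last; where a gene has several windows, the 1 with a match and the lowest coordinate is drawn.

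The inner centromere set had 19 members tested. At 75 µg/ml 12 were lower, at 150 µg/ml 15 were lower, and between the doses 7 were lower, where 19.4%, 25.7% and 12.5% of all genes tested were lower. No inner member was higher in any of the 3 comparisons, also not at an unadjusted p under 0.05 or with DESeq2 or limma-voom. The median log2 fold changes were -0.30, -0.48 and -0.20. The summed level was 1220 and 1250 CPM in DMSO, 1010 CPM in both libraries at 75 µg/ml and 853 and 856 CPM at 150 µg/ml, so that 69.2% of the DMSO mean was left at the higher dose.

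CENPA encodes the histone H3 variant that defines the centromere (chromosome 2, 26764289 to 26801067, GENCODE 29 on GRCh38). It stood at 50.4 and 57.5 CPM in DMSO, at 43.2 and 40.1 CPM at 75 µg/ml and at 17.2 and 22.9 CPM at 150 µg/ml. The groups did not overlap, and the lowest values were those at 150 µg/ml. The log2 fold change was -1.43 at 150 µg/ml (SE 0.113, edgeR adjusted p = 1.2e-08), a 62.8% lower level. From 75 to 150 µg/ml it was -1.05 (SE 0.115, edgeR adjusted p = 5.1e-06), which was the largest fall between the doses among the members. At 75 µg/ml it was -0.37 (SE 0.105, edgeR adjusted p = 0.00953), and this call was lost with library totals (adjusted p = 0.0722), without DMSO replicate 2 (0.0862) or without replicate 2 at 75 µg/ml (0.0644).

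HJURP is the chaperone that places CENP-A in chromatin (chromosome 2, 233833416 to 233854566). Its levels were 184 and 200 CPM in DMSO, 148 and 151 CPM with 75 µg/ml and 93.0 and 97.7 CPM with 150 µg/ml. The groups were separate and stepped down with dose. HJURP fell by 0.37 on the log2 scale at 75 µg/ml (SE 0.0553, edgeR adjusted p = 5.1e-05) and by 1.01 at 150 µg/ml (SE 0.057, edgeR adjusted p = 1.4e-10). The step between the doses was -0.65 (SE 0.0575, edgeR adjusted p = 5.6e-07). CENPA and HJURP were thus among the members that fell at each step.

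The other genes around CENP-A chromatin had smaller changes or wide intervals. MIS18A, a subunit of the complex that primes centromeres for new CENP-A, read 44.4 and 41.1 CPM in DMSO, 44.5 and 41.4 CPM with 75 µg/ml and 39.6 and 34.7 CPM with 150 µg/ml. Its 95% interval at 150 µg/ml ran from -0.39 to -0.02 on the log2 scale (edgeR adjusted p = 0.0656), and MIS18A was called lower with DESeq2 size factors (0.0432), with the replicate block (0.0427) and without replicate 1 at that dose (-0.31, 0.0284). OIP5, the MIS18B subunit of the same complex, had 22 to 52 counts per library, and 38.0% of its exonic bases are shared with the antisense gene OIP5-AS1. The OIP5 interval at 150 µg/ml was wide, from -1.17 to 0.34, and covers both no change and the change of HJURP. CENPB, which binds a DNA box in centromeric repeats, was 9.26% lower at 150 µg/ml (edgeR adjusted p = 0.0424). That CENPB call failed without any 1 library and with other filters, and with library totals the change was 0.05 in the other direction (adjusted p = 0.486).

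In the constitutive centromere network, 10 of 14 members fell at 75 µg/ml, 12 fell at 150 µg/ml and 5 fell between the doses. Over all genes tested, 19.4%, 25.7% and 12.5% were lower. CENPM, a member of the CENP-H/I/K/M group, showed the largest fall of the network at 150 µg/ml. It read 38.4 and 40.7 CPM in DMSO, 30.7 and 30.3 CPM with 75 µg/ml and 17.9 and 19.1 CPM with 150 µg/ml. The 3 groups of CENPM values did not overlap. Its log2 fold change was -1.10 at 150 µg/ml (SE 0.094, edgeR adjusted p = 3.1e-08) and -0.72 between the doses (SE 0.0955, edgeR adjusted p = 3.8e-05).

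CENPM's partners did not move alike. CENPI fell by 0.78 and CENPK by 0.49 on the log2 scale at 150 µg/ml. CENPH, in the same complex, stood at 20.3 and 19.5 CPM in DMSO and at 23.9 and 21.1 CPM at 150 µg/ml, with an interval of -0.05 to 0.41 for its log2 fold change. The CENPH interval does not reach the change of CENPI (-0.95 to -0.61) or CENPM (-1.29 to -0.90). CENPH was called higher with library totals, at 0.36 (adjusted p = 0.00888).

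CENPU, a subunit of the CENP-O/P/Q/U group that also recruits the kinase PLK1, showed the smallest p of the inner set at 75 µg/ml. It stood at 136 and 138 CPM in DMSO, 94.9 and 98.8 CPM with 75 µg/ml and 90.7 and 95.6 CPM with 150 µg/ml. Both doses lay below DMSO, and the libraries of the 2 doses overlapped. The log2 fold change was -0.50 at 75 µg/ml (SE 0.0567, edgeR adjusted p = 2.2e-06) and -0.56 at 150 µg/ml (SE 0.0568, edgeR adjusted p = 2.7e-07). Between the doses it was -0.06, with a 95% interval of -0.18 to 0.07. CENPN, which reads the CENP-A nucleosome, gave a like picture, with -0.33 and -0.35 at the doses and an interval of -0.15 to 0.11 between them. CENPU and CENPN share 11.7% and 22.8% of their exonic bases with other genes.

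CENPQ, another subunit of the CENPU group, read 38.8 and 44.8 CPM in DMSO, 43.6 and 38.7 CPM with 75 µg/ml and 43.4 and 39.6 CPM with 150 µg/ml. The 3 groups of CENPQ values overlapped, and its interval at 150 µg/ml was -0.21 to 0.19. That interval lies above that of CENPU (-0.68 to -0.44). CENPO, in the same group, fell by 0.49 at 150 µg/ml. Its fall of 0.21 at 75 µg/ml had an edgeR adjusted p of 0.0216 and was lost without any 1 of the DMSO or 75 µg/ml libraries (adjusted p from 0.0543 to 0.116). CENPP fell by 0.52 at 150 µg/ml, and its call at 75 µg/ml (edgeR adjusted p = 0.04) was lost with DESeq2 (0.103), with library totals (0.17), without either DMSO library (0.123 and 0.0804) and without replicate 2 at 75 µg/ml (-0.23, 0.312). Exonic overlap with other genes is 31.4% for CENPO and 42.7% for CENPP.

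CENPX, a histone-fold protein that also works in DNA crosslink repair, read 76.1 and 64.3 CPM in DMSO, 51.5 and 47.4 CPM with 75 µg/ml and 36.0 and 39.6 CPM with 150 µg/ml. All treated libraries were below both DMSO libraries. The log2 fold change was -0.51 at 75 µg/ml (SE 0.0869, edgeR adjusted p = 0.00018) and -0.89 at 150 µg/ml (SE 0.089, edgeR adjusted p = 2.1e-07). CENPT and CENPW, histone-fold partners of CENPX in the network, fell by 0.35 and 0.48 at 150 µg/ml. The difference from CENPX was not tested. CENPC, the scaffold that links CENP-A to the outer kinetochore, fell by 0.36 at 150 µg/ml, and CENPL by 0.40. With library totals CENPL (edgeR adjusted p = 0.13), CENPC (0.0887) and CENPT (0.0677) lost their calls at 150 µg/ml, and CENPT that at 75 µg/ml (0.0523). CENPL also lost its call at 150 µg/ml without DMSO replicate 2 or replicate 2 at that dose (log2 fold change -0.30 in each). Its call at 75 µg/ml was lost without DMSO replicate 2 (-0.34) or replicate 1 at 75 µg/ml (-0.30).

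**Figure D3:**
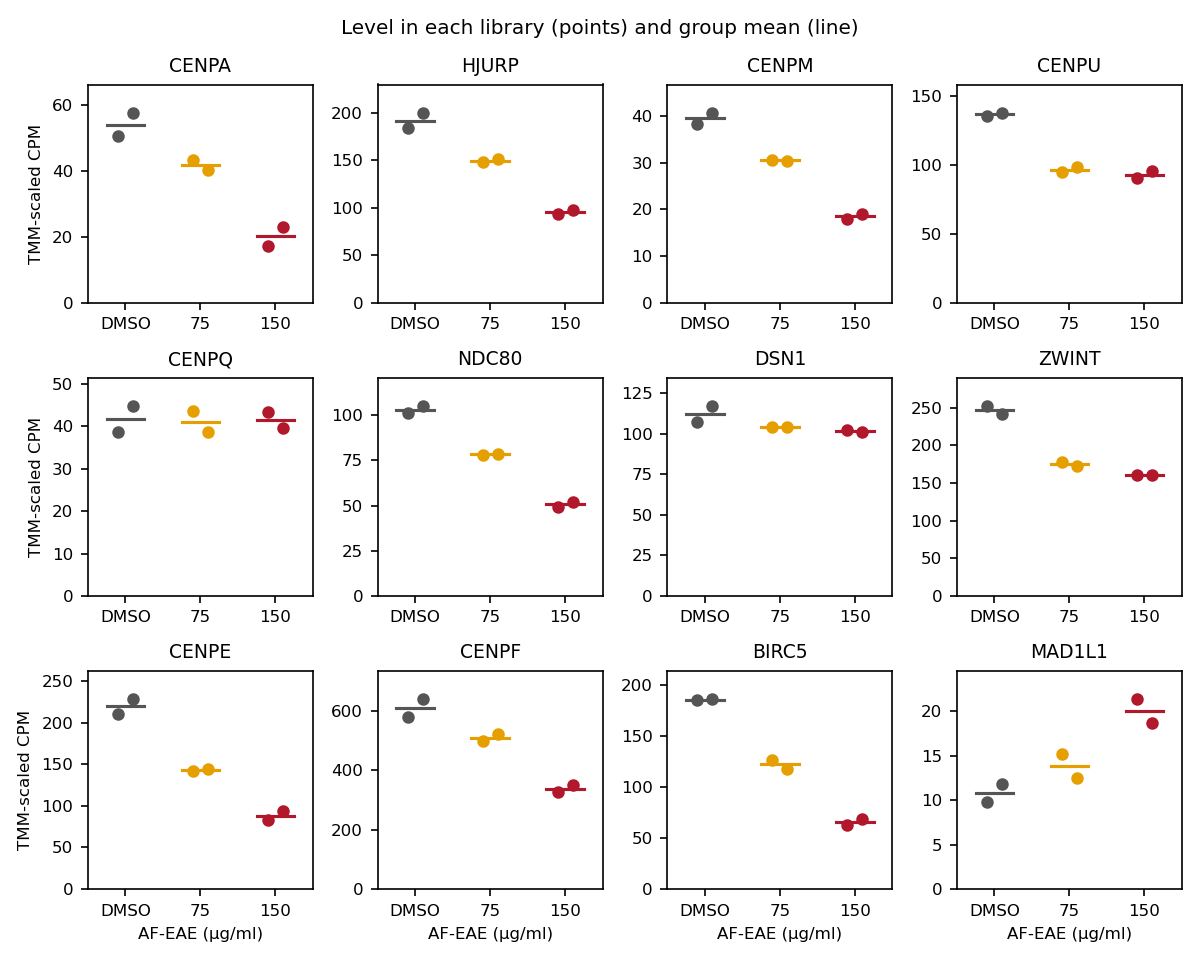
TMM-scaled CPM (vertical axis, from 0) of 12 members in each of the 6 libraries, with the group mean as a line. CENPA, HJURP, CENPM, NDC80, CENPE, CENPF and BIRC5 step down at each dose, CENPU and ZWINT change little between the doses, CENPQ and DSN1 had no call, and MAD1L1 steps up from 9.83 and 11.8 CPM in DMSO to 21.3 and 18.7 CPM at 150 µg/ml.

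The outer kinetochore set had 18 members tested. At 75 µg/ml 11 were lower, at 150 µg/ml 12 were lower, and between the doses 9 were lower, beside the same shares of all genes. The edgeR test called 0 outer members higher in each comparison, as did DESeq2 and limma-voom. At an unadjusted p under 0.05, 1 outer member, MIS12, was higher between the doses. The median log2 fold changes were -0.31, -0.54 and -0.27. Summed, the outer set stood at 2350 and 2410 CPM in DMSO, 1870 and 1900 CPM with 75 µg/ml and 1470 and 1500 CPM with 150 µg/ml, which left 62.5% at the higher dose.

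NDC80 is the microtubule-binding subunit of the 4-subunit complex of the same name (chromosome 18, 2571511 to 2616635). Its levels were 101 and 105 CPM in DMSO, 78.2 and 78.6 CPM with 75 µg/ml and 49.4 and 52.2 CPM with 150 µg/ml. The groups were separate. NDC80 fell by 1.02 on the log2 scale at 150 µg/ml (SE 0.0643, edgeR adjusted p = 5.7e-10), and by 0.63 from 75 to 150 µg/ml (SE 0.0652, edgeR adjusted p = 3e-06). Its dimer partner NUF2 fell by 0.89 at 150 µg/ml, from 85.9 and 92.0 CPM to 48.0 and 47.9 CPM. The other dimer of the complex, which anchors it to the kinetochore, is made of SPC24 and SPC25. SPC24 read 40.2 and 36.3 CPM in DMSO, 35.3 and 36.9 CPM with 75 µg/ml and 26.1 and 24.8 CPM with 150 µg/ml, and fell at the higher dose alone (log2 fold change -0.59, SE 0.0911, edgeR adjusted p = 3.6e-05). SPC25 had 29 to 57 counts per library, and its interval at 150 µg/ml, -1.05 to 0.23, covers both no change and the change of NUF2.

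Per exonic length, the levels within the NDC80 complex were uneven before treatment. In DMSO, NDC80 stood at 28.6 ± 0.815 (SD, n = 2) RPKM (the scaled CPM divided by the exonic length in kb), NUF2 at 26.5 ± 1.29, SPC24 at 13.5 ± 0.969 and SPC25 at 1.71 ± 0.152. At 150 µg/ml these were 14.1 ± 0.539, 14.3 ± 0.0341, 8.97 ± 0.315 and 1.28 ± 0.464 RPKM. NDC80 and NUF2 were within their spread of each other at 150 µg/ml.

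The MIS12 complex, which joins the NDC80 complex to the inner centromere, had no called gene in the outer set, where SPC25 and ZWILCH also had none. Of its 4 genes, MIS12, DSN1, NSL1 and PMF1, 0 were called by edgeR, DESeq2 or limma-voom in any comparison, while edgeR called 38.6% of all genes at 75 µg/ml, 51.5% at 150 µg/ml and 22% between the doses. At an unadjusted p under 0.05 it was 0 at 75 µg/ml, 1 (DSN1) at 150 µg/ml and 1 (MIS12) between the doses. DSN1 read 107 and 117 CPM in DMSO, 104 CPM in both libraries at 75 µg/ml and 102 and 101 CPM at 150 µg/ml. Its interval at 150 µg/ml was -0.26 to -0.01 (edgeR adjusted p = 0.065), and DESeq2 size factors made this a call (0.0364). Without DMSO replicate 1 the log2 fold change of DSN1 at 150 µg/ml was -0.20, against -0.14 with all libraries. NSL1 had an interval of -0.22 to 0.25 at 150 µg/ml, with 29.7 ± 2.34 CPM in DMSO and 29.9 ± 1.07 CPM at that dose (SD, n = 2).

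MIS12 itself read 51.7 and 46.8 CPM in DMSO, 42.7 and 46.4 CPM with 75 µg/ml and 56.8 and 48.2 CPM with 150 µg/ml. The groups at 150 µg/ml and in DMSO overlapped, and with library totals MIS12 was called higher at 150 µg/ml (0.28, adjusted p = 0.0131). Between the doses the log2 fold change was 0.24 with an interval of 0.05 to 0.42 (edgeR adjusted p = 0.0673). MIS12 was called higher between the doses under 6 alternatives, with adjusted p from 0.0224 with library totals to 0.0495 without DMSO replicate 2, and at 0.35 (0.0235) without replicate 2 at 150 µg/ml. The intervals of MIS12, DSN1 and NSL1 at 150 µg/ml all lie above that of NDC80, -1.16 to -0.88. PMF1 had 102 to 143 counts per library and an interval of -0.72 to 0.02, and 23.3% of its exonic bases are shared with the PMF1-BGLAP read-through gene. PMF1 was called lower at 150 µg/ml without replicate 1 of that dose (-0.58, adjusted p = 0.03).

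KNL1 and ZWINT form the arm that recruits checkpoint proteins. KNL1 fell from 161 and 158 CPM in DMSO to 137 and 141 CPM at 75 µg/ml and to 122 and 111 CPM at 150 µg/ml, a log2 fold change of -0.46 at the higher dose. ZWINT read 252 and 242 CPM in DMSO, 178 and 173 CPM with 75 µg/ml and 160 CPM in both libraries with 150 µg/ml. Most of the ZWINT change was present at the lower dose. Its log2 fold change was -0.50 at 75 µg/ml (SE 0.0493, edgeR adjusted p = 4.8e-07), -0.63 at 150 µg/ml (SE 0.0495, edgeR adjusted p = 1e-08) and -0.13 between the doses (SE 0.05, edgeR adjusted p = 0.0665). The promoter of ZWINT, shown above, holds a CHR on the opposite strand and CCAAT letters. Among genes that fell at each step, both are also in CENPA, HJURP, CENPF, SPDL1, INCENP, CDCA8 and MAD2L1. NDC80, NUF2, SKA3 and CENPO have a CHR alone, CENPK, CENPX and SKA2 have CCAAT letters alone, and CENPI and CENPE have neither.

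The SKA complex helps the NDC80 complex hold on to shortening microtubules. SKA2 read 203 and 183 CPM in DMSO, 145 and 136 CPM with 75 µg/ml and 114 and 115 CPM with 150 µg/ml. The groups were separate, and the log2 fold change was -0.46 at 75 µg/ml (SE 0.0584, edgeR adjusted p = 8e-06) and -0.75 at 150 µg/ml (SE 0.0591, edgeR adjusted p = 1.1e-08). SKA3 fell by 0.49 and 0.78 at the 2 doses, from 90.3 and 81.8 CPM in DMSO to 48.8 and 51.6 CPM at 150 µg/ml. The 2 genes changed by nearly the same amount, with intervals at 150 µg/ml of -0.87 to -0.62 and -0.93 to -0.63.

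CENPE is a kinesin motor of the fibrous corona that carries chromosomes to the spindle equator (chromosome 4, 103105806 to 103198409). It stood at 211 and 228 CPM in DMSO, 142 and 144 CPM with 75 µg/ml and 83.0 and 93.6 CPM with 150 µg/ml. The 3 groups were far apart compared with their spread. CENPE fell by 0.62 on the log2 scale at 75 µg/ml (SE 0.0599, edgeR adjusted p = 3.3e-07) and by 1.31 at 150 µg/ml (SE 0.0621, edgeR adjusted p = 1.5e-11), and the step between the doses was -0.69 (SE 0.0629, edgeR adjusted p = 7.2e-07). This was the largest fall in the outer set at both doses.

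CENPF, a large coiled-coil protein of the corona, was the member with the highest CPM. Its values were 581 and 639 CPM in DMSO, 498 and 523 CPM with 75 µg/ml and 326 and 349 CPM with 150 µg/ml. The groups did not overlap, and most of the fall came at the higher dose. CENPF fell by 0.86 at 150 µg/ml (SE 0.0534, edgeR adjusted p = 5e-10) and by 0.60 between the doses (SE 0.0534, edgeR adjusted p = 5.7e-07). SPDL1, the spindly adaptor that brings dynein to the kinetochore, fell by 0.42 and 0.82 at the 2 doses.

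The RZZ complex of KNTC1 (Rod), ZWILCH and ZW10 forms the corona mesh, and its genes differed from CENPE and CENPF. ZW10 read 88.6 and 92.1 CPM in DMSO, 66.5 and 71.3 CPM with 75 µg/ml and 64.9 and 76.9 CPM with 150 µg/ml, and KNTC1 fell by 0.37 and 0.49. Neither changed between the doses past the threshold, with intervals of -0.12 to 0.21 and -0.27 to 0.02. ZWILCH read 57.5 and 51.9 CPM in DMSO and 53.9 and 50.5 CPM at 150 µg/ml. The ZWILCH groups overlapped in each comparison, and its interval at 150 µg/ml was -0.23 to 0.09. With library totals ZW10 lost its call at 150 µg/ml (adjusted p = 0.0816).

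**Figure D4:**
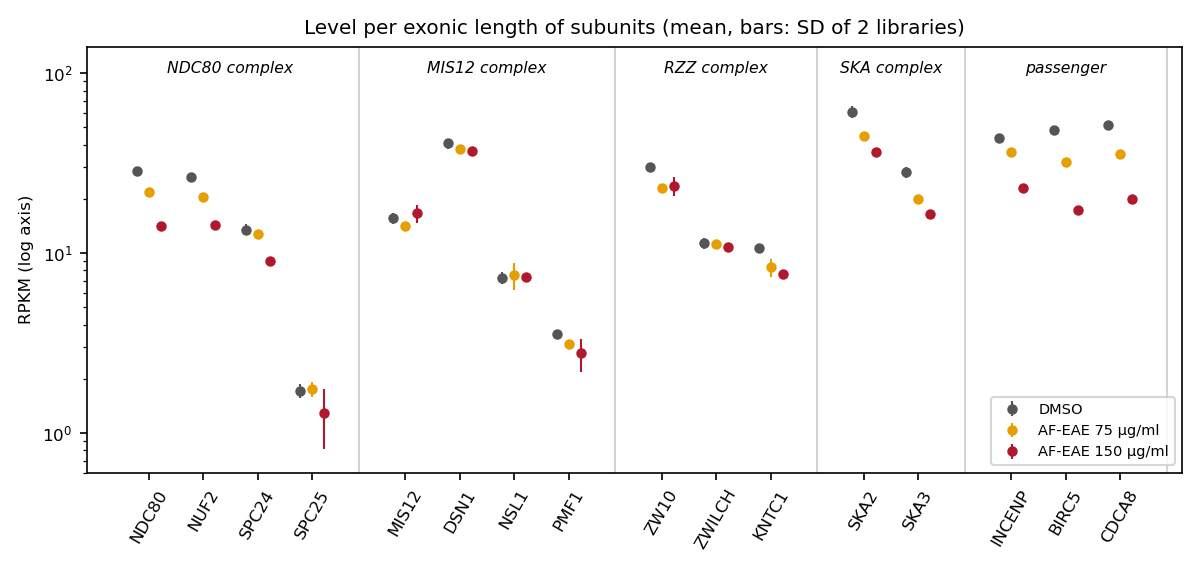
Level per exonic length (RPKM, log axis) of the subunits of the NDC80, MIS12, RZZ, SKA and passenger complexes, as the mean of 2 libraries with SD, in DMSO (grey) and at 75 (orange) and 150 µg/ml (red). SKA1, listed at 0, is not drawn; the passenger genes, NDC80 and NUF2 step down with dose, while MIS12, DSN1, NSL1 and ZWILCH had no call (with library totals MIS12 was called higher at 150 µg/ml).

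The passenger set had the lowest share of its DMSO level left at 150 µg/ml among the roles. At 75 µg/ml the SKA genes (72.3% of DMSO) and the passenger genes (73.8%) were close, with SKA sums of 293 and 265 CPM in DMSO. By median log2 fold change at 75 µg/ml the order was the other way, with -0.47 for SKA and -0.53 for passenger genes. Of 3 passenger members, 3 fell at 75 µg/ml, at 150 µg/ml and between the doses, where 19.4%, 25.7% and 12.5% of all genes tested were lower. The median log2 fold changes of the 3 members were -0.53, -1.35 and -0.82. Their summed level was 509 and 504 CPM in DMSO, 384 and 364 CPM with 75 µg/ml and 212 and 227 CPM with 150 µg/ml, which left 73.8% and 43.3% of the DMSO mean.

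BIRC5 encodes survivin, the subunit that brings the complex to the centromere (chromosome 17, 78214186 to 78225636). It read 185 and 186 CPM in DMSO, 127 and 118 CPM with 75 µg/ml and 63.2 and 68.9 CPM with 150 µg/ml. The groups were separate at each step. The log2 fold change was -0.60 at 75 µg/ml (SE 0.0575, edgeR adjusted p = 3.4e-07) and -1.49 at 150 µg/ml (SE 0.0606, edgeR adjusted p = 2.2e-12), a 64.4% lower level and the largest fall among the members. Between the doses it was -0.89 (SE 0.0615, edgeR adjusted p = 3.3e-08).

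CDCA8 encodes borealin, the partner of survivin (chromosome 1, 37692418 to 37709719). It fell from 125 and 128 CPM in DMSO to 87.5 and 87.8 CPM at 75 µg/ml and to 49.0 and 50.5 CPM at 150 µg/ml, or by 60.7% at the higher dose. INCENP, the scaffold that activates Aurora B, read 199 and 190 CPM in DMSO, 169 and 158 CPM with 75 µg/ml and 99.6 and 107 CPM with 150 µg/ml, a fall of 46.8%. The INCENP call at 75 µg/ml was lost with library totals (adjusted p = 0.0857). Per exonic length the 3 genes were close in DMSO, at 43.5 ± 1.34 RPKM for INCENP, 48.6 ± 0.0234 for BIRC5 and 51.3 ± 0.779 for CDCA8 (SD, n = 2). At 150 µg/ml they were at 23.1 ± 1.24, 17.3 ± 1.06 and 20.1 ± 0.442 RPKM, so that INCENP went from the lowest to the highest of the 3.

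AURKB, the kinase of the complex and not a listed member, stood at 170 CPM in DMSO, 136 CPM at 75 µg/ml and 98.7 CPM at 150 µg/ml on average. Its log2 fold change was -0.78 at 150 µg/ml (SE 0.0622, edgeR adjusted p = 1.2e-08). Per exonic length AURKB stood at 75.7 ± 6.37 RPKM in DMSO and 44.0 ± 2.07 RPKM at 150 µg/ml (SD, n = 2), above the 3 other subunits in both.

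The 3 layers were set against each other within a library, where the scaling of the library cancels. The summed level of the passenger genes divided by that of the inner genes was 0.417 and 0.404 in DMSO, 0.38 and 0.361 at the lower dose and 0.248 and 0.265 at the higher dose. The groups did not overlap, and the ratio was lowest at 150 µg/ml. The outer genes divided by the inner genes gave 1.92 and 1.93, then 1.85 and 1.88, then 1.72 and 1.76. This ratio also stepped down without overlap, by less. CENPF and CENPE made up 610 and 219 of the 2380 CPM of the outer sum in DMSO. At 150 µg/ml they made up 337 and 88.3 of 1490 CPM. At that dose the KNL1-MIS12-NDC80 network kept 70.7% of its DMSO level, beside 69.2% for the inner set. The SKA genes kept 59.2% and the corona, RZZ and spindly genes 57.8%. The ratio without CENPF and CENPE was not taken, so the step may not hold for the whole layer. With 2 libraries against 2, an exact permutation test (two-sided) cannot go below p = 0.333, and each ratio taken gave 0.333 in each comparison.

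**Figure D5:**
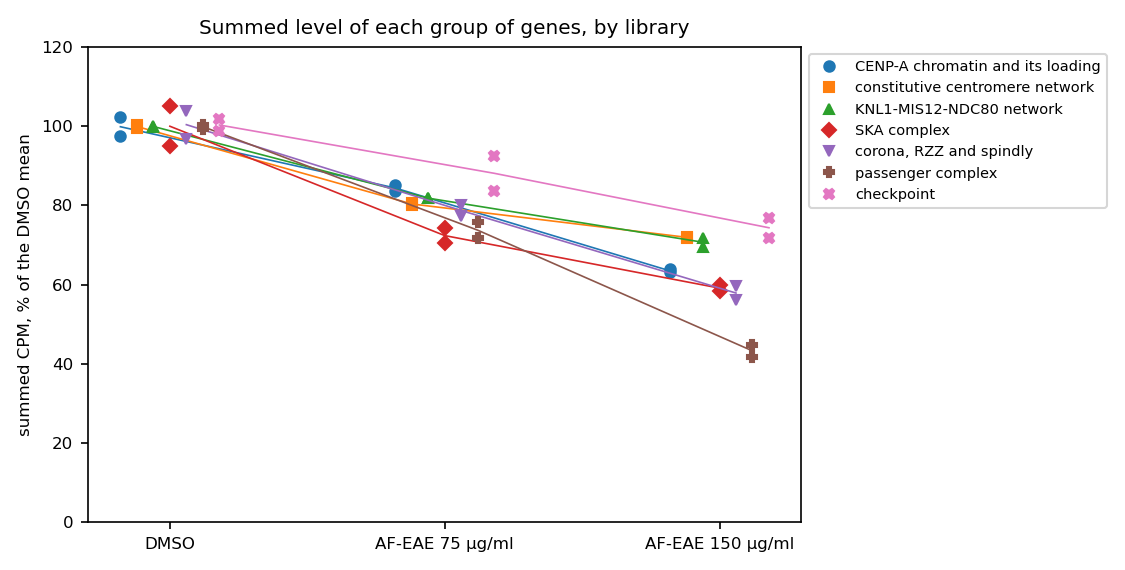
Summed CPM of each role, as a percentage of its DMSO mean, in each of the 6 libraries (points), with a line through the group means. The passenger complex reaches 43.3% at 150 µg/ml, the corona, RZZ and spindly genes 57.8%, the SKA genes 59.2%, the CENP-A chromatin genes 63.5%, the KNL1-MIS12-NDC80 network 70.7%, the constitutive centromere network 72% and the 2 checkpoint genes 74.2%.

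The 2 checkpoint members form a complex and went in opposite directions. MAD2L1, the checkpoint protein MAD2, read 148 and 151 CPM in DMSO, 133 and 122 CPM with 75 µg/ml and 101 and 96.7 CPM with 150 µg/ml. Its log2 fold change was -0.59 at 150 µg/ml (SE 0.0585, edgeR adjusted p = 1.7e-07). MAD1L1, the protein MAD1 that holds MAD2 at the kinetochore (chromosome 7, 1815793 to 2233243), read 9.83 and 11.8 CPM in DMSO, 15.2 and 12.5 CPM with 75 µg/ml and 21.3 and 18.7 CPM with 150 µg/ml. The values at 150 µg/ml lay above all others. MAD1L1 rose 1.84-fold at 150 µg/ml (log2 fold change 0.88, SE 0.14, edgeR adjusted p = 4.3e-05). At 75 µg/ml the log2 fold change was 0.35 (SE 0.145, edgeR adjusted p = 0.0651), and it was called higher with library totals (0.0138), with the filter of 5 CPM in 2 libraries (0.0466), without DMSO replicate 2 (0.0342) and without replicate 2 at 75 µg/ml (0.0322). Between the doses it was 0.53 (SE 0.135, edgeR adjusted p = 0.00919), a call lost without replicate 2 at 75 µg/ml (0.105) or replicate 1 at 150 µg/ml (0.117).

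The checkpoint kinases outside the list gave mixed values. BUB1, which recruits shugoshin and checkpoint proteins to kinetochores, fell by 0.33 at 75 µg/ml and by 1.03 at 150 µg/ml (edgeR adjusted p = 7.5e-11). BUB1B, or BUBR1, fell by 0.37 and 1.01. TTK, the kinase MPS1 at the head of the checkpoint, stood at 76.3 and 88.0 CPM in DMSO and at 78.2 and 83.3 CPM at 75 µg/ml, where the groups overlapped. TTK fell at 150 µg/ml, by 0.52 (edgeR adjusted p = 2.1e-05). SGO1, which protects centromeric cohesion, had log2 fold changes of -0.05 and -0.19 with no call. In a list of 37 other kinetochore, centromere and checkpoint genes, 36 were tested, and 25, 28 and 27 were lower at 75 µg/ml, at 150 µg/ml and between the doses, against 19.4%, 25.7% and 12.5% of all genes tested. None of these was higher at either dose by edgeR, DESeq2 or limma-voom, with 1 at an unadjusted p under 0.05 at 75 µg/ml and 0 at 150 µg/ml, and 1 was higher between the doses.

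Among 24 regulators of cell cycle promoters, the MuvB, E2F, NF-Y and related genes, 13 were lower and 3 higher at 75 µg/ml, and 14 were lower and 4 higher at 150 µg/ml. Over all genes tested the shares were 19.4% and 19.2%, and 25.7% and 25.8%. FOXM1, the forkhead factor that works with MuvB at CHR promoters, stood at 239 and 240 CPM in DMSO, 167 and 170 CPM with 75 µg/ml and 109 and 124 CPM with 150 µg/ml. The groups were separate, with a log2 fold change of -0.51 (SE 0.057, edgeR adjusted p = 2e-06) and -1.04 (SE 0.0584, edgeR adjusted p = 1.3e-10). The part of these regulators in the members' levels was not tested.

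The last 2 members carry a CENP name but have other main roles. CENPV, a protein linked to centromeric heterochromatin and the midzone, had the largest fall at 75 µg/ml. It read 12.0 and 10.1 CPM in DMSO, 6.78 and 6.13 CPM with 75 µg/ml and 7.68 and 7.08 CPM with 150 µg/ml. Both doses lay below DMSO, and the higher dose was no lower than the lower dose. The log2 fold change was -0.78 at 75 µg/ml (SE 0.164, edgeR adjusted p = 0.00109) and -0.58 at 150 µg/ml (SE 0.161, edgeR adjusted p = 0.00556), and the second call was lost without DMSO replicate 1 (0.0734). CENPJ, a centriole protein, read 33.3 and 34.0 CPM in DMSO and 36.4 and 39.6 CPM at 150 µg/ml, with an interval of -0.01 to 0.36. It was called higher at 150 µg/ml with library totals (0.36, adjusted p = 0.00214) and with the filter of 5 CPM in 2 libraries (0.21, adjusted p = 0.0414).

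Overlapping genes touch some of these values, since reads that fall in more than 1 gene were set aside in the deposited counts and made up 10.95% to 11.48% of the total. In 8 members, OIP5, CENPN, CENPO, CENPP, CENPT, CENPU, PMF1 and ZWILCH, at least 10% of the exonic bases are shared with another gene in GENCODE 29. The release used for counting was not found, and 58391 of the 60651 gene rows have a GENCODE 29 length. The overlaps that applied in the counting can therefore differ from these, also for the members below 10%. In the other 36 members tested, 23 were lower at 75 µg/ml, against 19.4% of all genes. At 150 µg/ml 27 of them were lower and 1 higher, against 25.7% and 25.8% of all genes. The median log2 fold change of these 36 members at 150 µg/ml was -0.59.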

How the data were processed

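RNA of MDA-MB-231 cells was sequenced in 6 libraries, 2 each for DMSO, 75 µg/ml and 150 µg/ml AF-EAE at 24 h. Each library's file, as deposited by the authors, holds untransformed read counts for 60651 genes. HISAT2 2.2.1, HTSeq 2.0.2 and hg38 are named in the submitters' processing notes, while the counting options, strand and annotation release were not found there. Summary rows after the genes entered no library size and no test; of these, reads outside genes were 6.32% to 7.98%, and reads in overlapping genes 10.95% to 11.48%. The row for multiply aligned reads held 0. Symbols were matched by gene ID for 60437 rows, and exonic lengths and coordinates are those of GENCODE 29.

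Tests used edgeR 4.0.16 in R 4.3.3: TMM, the default filter by group (15589 genes kept), all 6 libraries, a mean per group, the quasi-likelihood F-test and Benjamini-Hochberg adjustment at 0.05. The standard error was derived from F, and 95% intervals use 16.8 degrees of freedom. The procedure was run on simulated counts in which a small part of the genes was changed, equally up and down. Many more genes were called in the real data, so the simulation does not test the choice of scaling. Gene counts per library ran from 15621103 to 17113722, and intervals from counts cover counting error only. Levels are TMM-scaled CPM, or RPKM per kb of exons.

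In each comparison full statistics go to the 3 inner, 3 outer and 1 passenger members with the smallest p, to the largest rise and fall, and to members called against the majority. AURKB, BUB1, BUB1B, TTK, SGO1 and FOXM1 were named by rule; other members named with values were chosen after these were seen. The members and lists were chosen with earlier results of these data known. Alternatives were DESeq2 size factors or total counts for TMM, other filters, DESeq2 1.42.0, limma-voom (limma 3.58.1), fits of 2 groups, the replicate block, each library left out, an adjusted p of 0.01 and, added after seeing the data, only members with under 10% exonic overlap.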

Additional observations from a re-analysis of the deposited data

How the results depend on the processing

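With scaling by total counts, all genes together had median changes of 0.14, 0.22 and 0.06 (log2) at 75 µg/ml, at 150 µg/ml and between the doses. The members called lower then were 18 at 75 µg/ml, against 11.6% of all genes. The members called higher were 2, 4 and 2, against 4501, 6031 and 2206 of all 15589 genes. The medians were -0.18, -0.29 and -0.14 in the inner set and -0.19, -0.35 and -0.21 in the outer set. In the passenger set they were -0.40, -1.16 and -0.76. CENPB at 150 µg/ml changed sign, to 0.05. With the filter of 5 CPM in 2 libraries 1, 2 and 2 members were called higher, against 2772, 3597 and 1641 of 11021 genes. Medians of the sets were then -0.28, -0.44 and -0.17 (inner), -0.55 at 150 µg/ml (outer) and -0.51 and -1.31 at the 2 doses (passenger). DESeq2 size factors and DESeq2 both gave -0.55 for the passenger median at 75 µg/ml and -0.56 for the outer median at 150 µg/ml, and no filter gave -0.54 and -0.55. Fitting only the 2 groups called 2 members higher between the doses, against 1713 of 15220 genes.

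Leaving out each library in turn gave 24 to 28, 30 to 33 and 16 to 20 members lower at 75 µg/ml, at 150 µg/ml and between the doses, and 0 to 1, 1 to 1 and 0 to 2 higher. With no library left out, 19.4%, 25.7% and 12.5% of all genes tested were lower and 19.2%, 25.8% and 9.51% higher. Inner medians with each library left out ran from -0.31 to -0.27, from -0.50 to -0.44 and from -0.26 to -0.15. Outer medians ran from -0.36 to -0.25, from -0.60 to -0.51 and from -0.27 to -0.24. Passenger medians ran from -0.55 to -0.52, from -1.37 to -1.33 and from -0.84 to -0.79.

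The replicate numbers do not pair the libraries by the labels, and deviations of same-numbered libraries correlated at 0.059, 0.0412 and 0.00373. With the replicate block 2 members were higher between the doses, against 1657 of 15589 genes. Single calls then changed for MIS18A at 150 µg/ml (lower, edgeR adjusted p = 0.0427) and MIS12 between the doses (higher, 0.0439). Over all single-member results and these alternatives, 1764 kept their side of the threshold, 53 lost a call and 22 gained 1. In 1, a called change reversed its sign. Changes of sign without a call in either fit were counted among the 1764. A library left alone in its group was assumed to vary like the other groups. Among members with few counts, the intervals of OIP5 (-1.17 to 0.34) and SPC25 (-1.05 to 0.23) at 150 µg/ml were wide. They cover both no change and the changes of HJURP and NUF2, while that of OIP5 does not reach the change of CENPA (-1.43). The interval of PMF1, -0.72 to 0.02, covers no change but does not reach the changes of NDC80 (-1.02) or NUF2 (-0.89).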
